A study of Mus musculus with 24 samples.

Results

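The comparison of BC CML with CP CML LSKs took 12 of the 24 bulk RNA-seq libraries of the series, 6 from miR-142-/- BCR-ABL mice (BC CML) and 6 from miR-142+/+ BCR-ABL mice (CP CML). The members were chosen by the labelled genotype (Mir142 KO BCR-ABL+ against BCR-ABL+), and all genes were examined. Each library came from 1 mouse, with 3 females and 3 males per group. LSKs are the Lin-Sca-1+c-Kit+ bone marrow cells in which blood stem and multipotent progenitor cells are found. Both groups carried SCLtTA/BCR-ABL on a B6 background, where withdrawal of tetracycline switches on BCR-ABL under the SCL promoter, and LSKs were sorted after that induction. The groups thus differed in a deletion of miR-142 that the mice carried, not one limited to LSKs, and BC names the disease that develops in these mice rather than a sorted blast. The study's methods give another number of mice per group than the labels, which give 6, and each of the 6 was used. The other 12 libraries, 6 from miR-142 KO and 6 from WT mice without BCR-ABL, served to compare the effect of miR-142 loss in normal LSKs. The age of the mice was not given in the sources used here.

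MicroRNAs guide Argonaute proteins to messenger RNAs through a short seed near their 5′ end, and pairing of the seed with a site in the 3′ UTR usually lowers the level and translation of the target. miR-142 is abundant in blood cells, and both arms of its hairpin are used. In blood formation it is known for roles in actin organization, in lymphoid, dendritic and mast cell biology and in platelet formation. In chronic myeloid leukemia, the BCR-ABL kinase drives expansion of myeloid cells from a stem cell, and blast crisis is the acute stage of the disease.

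The mature arms are shown because their seeds define the target sites examined. Both lie on the plus strand of chromosome 11 in GRCm38 (mm10), 5p at chr11:87756867-87756887 and 3p at chr11:87756903-87756925, and their sequences are from RefSeq. Capitals mark the seed, bases 2 to 8.
miR-142a-3p: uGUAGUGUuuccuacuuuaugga
miR-142a-5p: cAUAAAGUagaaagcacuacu

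Target sites were read in the longest annotated 3′ UTR of each gene on its sense strand. An 8mer is the reverse complement of the seed followed by A, which is ACACTACA for 3p and ACTTTATA for 5p. A 7mer-m8 lacks the final A (ACACTAC and ACTTTAT), and a 7mer-A1 lacks the first base (CACTACA and CTTTATA), so both 7mers overlap the 8mer and a gene was placed in its strongest class. The sites below belong to genes described next, with flanking bases in lower case, the 8mer in capitals and the coordinates of the 8mer in GRCm38.
Rab12 (chr17:66495372-66495379, minus strand): tgttaattACACTACAaggcagac
Itgav (chr2:83803779-83803786, plus strand): tacacattACACTACAgttgactt
Cfl2 (chr12:54860423-54860430, minus strand): gtcttgaaACACTACAgatatttt
Tsen34 (chr7:3700828-3700835, plus strand): ggttttgaACACTACAtcctttct
Rab2a, first site (chr4:8606787-8606794, plus strand): tgtattaaACACTACAaagtcatg
Rab2a, second site (chr4:8607325-8607332, plus strand): aaactccaACACTACAcaactccc
Igf2bp3, 5p site (chr6:49086724-49086731, minus strand): ttttatatACTTTATAaaaactcc

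The libraries were first checked against their labels. Mir142 (chr11:87756864-87756927, plus strand) had 68 to 153 counts in each CP CML library and 0 in each BC CML library. Taking 3 counts per library as the most that an observed 0 allows (counting error alone), it was at least 35.2-fold lower in BC CML. Total counts were between 16267965 and 24462482 for CP CML and between 20206360 and 24687077 for BC CML. Levels below are CPM (counts scaled to the TMM-adjusted library total), and 3 values in a row are the lowest, median and highest of the 6 libraries of a group. Sex-linked transcripts matched the labelled sex in 12 of 12 libraries, although Xist counted up to 33.2 CPM in a male library.

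The genes of the sort were all expressed, though unequally. Kit, the receptor used to gate the cells, had 974, 1123 and 1239.5 CPM in CP CML and 745, 803 and 883 CPM in BC CML LSKs (log2 fold change -0.46, SE 0.09, adjusted p = 0.000546). Ly6a, which encodes Sca-1, had 36.6, 51.6 and 69.9 CPM in CP CML and 94.3, 106 and 135 CPM in BC CML LSKs (log2 fold change 1.09, SE 0.21, adjusted p = 0.000333). Neither gene overlapped between the groups, Kit lower and Ly6a higher in BC CML LSKs. Cd34 had 909, 934 and 957 CPM in CP CML and 917, 992 and 1148 CPM in BC CML LSKs (log2 fold change 0.11, adjusted p = 0.106). Of the genes that mark cells the lineage depletion should remove, Cd3e, Cd8a and Ly6g stayed at or below 0.353 CPM in every library, and Ms4a1 at or below 0.788 CPM. Itgam, an integrin of myeloid cells, was present at 66.7 to 111 CPM over both groups. Adgre1, which encodes the macrophage marker F4/80, had 8.05, 20.2 and 22.6 CPM in CP CML and 18.6, 28.6 and 42.0 CPM in BC CML LSKs (log2 fold change 0.77, adjusted p = 0.214), with overlapping groups. BC CML replicate 3 stood apart on the third principal component of the 12 libraries and held the highest Col1a1, a collagen gene of stromal cells, at 16.6 CPM.

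Of 13520 genes tested with edgeR's quasi-likelihood test and Benjamini-Hochberg adjustment, 5137 (38%) had an adjusted p below 0.05, which is what higher, lower, rose and fell mean below. There were 2757 higher (20.4%) and 2380 lower (17.6%) genes in BC CML LSKs, the background for each list count below. This split depends on the scaling, with 42.4% of calls higher under upper quartile normalization and 37.9% under library totals against 53.7% under TMM. For 2801 genes (20.7%), every library of one group was above every library of the other. Many genes named below were picked by smallest p, which favors genes without overlap, so their lack of overlap is a description. The median log2 fold change over all tested genes was 0.01, and that of the called genes was 0.397 in absolute value, so most changes were small. Changes beyond a log2 fold change of 2 were found for 135 higher and 174 lower genes.

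The largest rises were spread over unlike functions. Tspoap1, a gene on the same strand downstream of the deleted Mir142 (chr11:87760541-87785928) that encodes a scaffold protein, had 39.5, 46.5 and 59.7 CPM in CP CML and 3938, 4368 and 5256 CPM in BC CML LSKs (log2 fold change 6.54, SE 0.18, adjusted p = 2.6e-18). Stab2, a scavenger receptor for hyaluronan, had 2.31, 6.50 and 13.1 CPM in CP CML and 98.9, 137 and 205 CPM in BC CML LSKs (log2 fold change 4.28, SE 0.64, adjusted p = 1.59e-05). Epas1, the hypoxia-inducible factor HIF-2 alpha, had 1.52, 2.07 and 4.36 CPM in CP CML and 38.1, 44.1 and 74.1 CPM in BC CML LSKs (log2 fold change 4.48, SE 0.58, adjusted p = 2.67e-06). The 3 genes were separated between the groups by wide gaps. The rule for the largest rises required no overlap, which 20.7% of all tested genes had. Among the low genes, the receptor tyrosine phosphatase Ptprg had 0.218, 0.460 and 0.788 CPM in CP CML and 6.43, 16.1 and 26.2 CPM in BC CML LSKs (log2 fold change 5.11, SE 0.32, adjusted p = 2.2e-11). The RNA-binding protein Igf2bp3, known from fetal blood stem cells, had 1.36, 1.56 and 2.30 CPM in CP CML and 15.8, 21.0 and 43.6 CPM in BC CML LSKs (log2 fold change 3.94, SE 0.31, adjusted p = 1.59e-09). Pcsk1, a prohormone convertase, Dkk3, a secreted protein of the Dickkopf family, and Npnt, an extracellular matrix ligand of integrins, rose by log2 fold changes of 4.47, 4.14 and 4.19.

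Of the 15 genes named for the largest falls, Jchain, Pou2af1, Mzb1 and Fcrla belong to the B lineage list and Car1 to the erythroid list. Jchain, the joining chain of secreted antibodies, had 135, 299 and 694 CPM in CP CML and 0.432, 5.37 and 10.8 CPM in BC CML LSKs (log2 fold change -6.04, SE 0.78, adjusted p = 2.48e-06). Chil1, a chitinase-like secreted protein, had 3.15, 4.36 and 7.50 CPM in CP CML and 0, 0.0428 and 0.0942 CPM in BC CML LSKs (log2 fold change -6.86, SE 0.60, adjusted p = 6.68e-09). Car1, a carbonic anhydrase of red cells, had 5.86, 11.5 and 28.3 CPM in CP CML and 0.424, 0.599 and 2.22 CPM in BC CML LSKs (log2 fold change -3.94, SE 0.71, adjusted p = 0.000136). All 3 were lower in every BC CML library than in any CP CML library, which the rule for the largest falls required. The endosomal aspartic protease Ctse had 224, 240.0 and 247 CPM in CP CML and 25.3, 31.6 and 35.2 CPM in BC CML LSKs (log2 fold change -2.92, SE 0.14, adjusted p = 1.13e-13). The eosinophil granule genes Prg2 and Epx fell with log2 fold changes of -2.76 and -2.97.

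Genes with a miR-142a-3p site were higher more often than genes without one. A 3′ UTR was annotated for 12612 of the tested genes, of which 21.3% were higher and 17.5% lower. Of the 390 genes with a 3p 8mer (3.09% of these UTRs), 163 (41.8%) were higher and 54 (13.8%) lower, with a median log2 fold change of 0.15. The share that was higher fell step by step, to 32.7% of 489 genes with a 7mer-m8, 25% of 628 with a 7mer-A1 and 19.8% of 11105 with no 3p site (medians 0.09, 0.04 and 0.01). Genes with a 3p 8mer had longer UTRs (median 2482 bases against 1044), so the classes were also compared within 4 equal bins of UTR length. From the shortest to the longest bin, the 3p 8mer medians were 0.22, 0.18, 0.19 and 0.10. Those of genes with no 3p site were 0.05, 0.02, -0.003 and -0.01. For the 5p arm the classes lay close together, with 23.2% of 652 8mer genes (5.17% of the UTRs) higher against 20.8% of 9658 without a site (medians 0.04 and 0.02). A seed match is a description of the UTR and not evidence that miR-142 binds there.

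**Figure D1:**
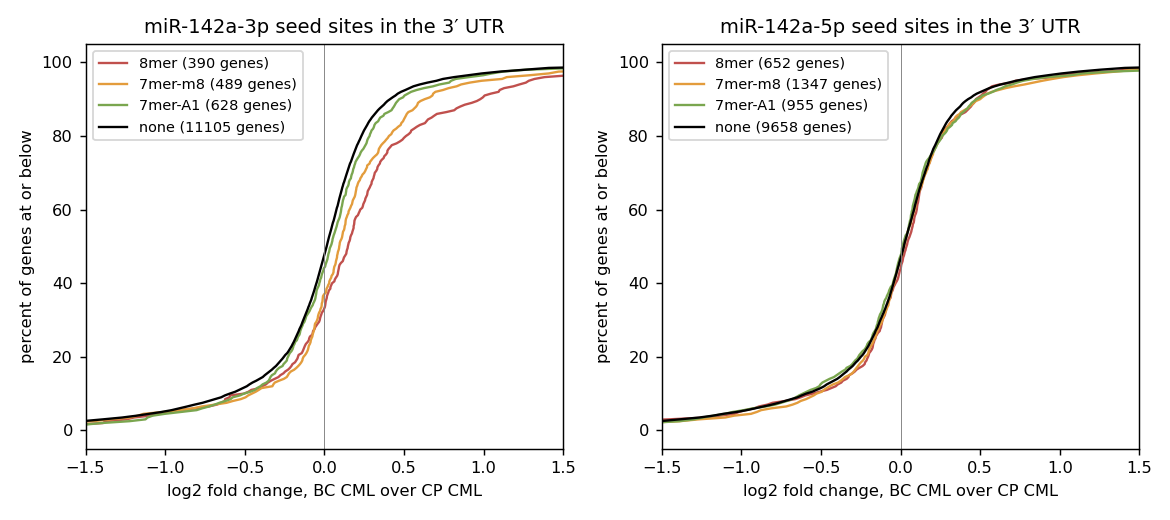
Cumulative distribution of the log2 fold change (BC CML over CP CML, x axis) of genes grouped by their strongest miR-142a seed match in the 3′ UTR, as the percent of genes at or below each value (y axis), 3p left and 5p right. The 3p 8mer curve lies to the right of the curve of genes with no 3p site, while the 5p curves nearly coincide.

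The 10 genes with a 3p 8mer and the smallest p were all higher, and by the rule that named them this is a description. Rab12, a small GTPase of recycling endosomes and lysosomes, had 32.01, 35.8 and 40.2 CPM in CP CML and 80.4, 83.1 and 87.1 CPM in BC CML LSKs (log2 fold change 1.199, SE 0.05, adjusted p = 4.46e-15). Gna11, a G protein alpha subunit of the Gq class, has 3 such sites in its 3′ UTR and had 24.5, 25.4 and 28.2 CPM in CP CML and 96.1, 105 and 107 CPM in BC CML LSKs (log2 fold change 2.01, SE 0.08, adjusted p = 4.46e-15). Tsen34, a subunit of the tRNA splicing endonuclease, had 11.9, 14.3 and 16.4 CPM in CP CML and 44.3, 46.1 and 49.98 CPM in BC CML LSKs (log2 fold change 1.70, SE 0.07, adjusted p = 4.46e-15). In each of these the lowest BC CML library was above the highest CP CML library. Cfl2, a cofilin that severs actin filaments, had 20.8, 22.8 and 36.0 CPM in CP CML and 97.2, 105 and 117 CPM in BC CML LSKs (log2 fold change 2.05, SE 0.10, adjusted p = 3.61e-13). Itgav, the integrin alpha V chain, had 38.8, 42.5 and 48.5 CPM in CP CML and 90.2, 104 and 111 CPM in BC CML LSKs (log2 fold change 1.23, SE 0.06, adjusted p = 1.13e-13). The others were Tmem59, a Golgi membrane protein, Bod1, which helps chromosomes attach to the spindle, Rab2a, a GTPase of traffic between endoplasmic reticulum and Golgi, the inositol phosphatase Inpp5a and the endosomal sorting protein Stam2, with log2 fold changes of 0.96, 1.22, 0.98, 1.09 and 0.71. Among genes with a 5p 8mer, Ptprg and Igf2bp3 were joined by Nxt2 (1.09), a cofactor of mRNA export, Scoc (1.32), a Golgi coiled-coil protein, and Sec23a (0.62), a coat protein of vesicles that leave the endoplasmic reticulum (log2 fold changes in parentheses).

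Of 24 genes listed as reported miR-142 targets, 14 were higher and 3 lower, with a median log2 fold change of 0.26. Beside Itgav, Cfl2 and Bod1, the type I TGF-beta receptor Tgfbr1 had 75.3, 89.0 and 105 CPM in CP CML and 164, 192 and 253 CPM in BC CML LSKs (log2 fold change 1.14, SE 0.09, adjusted p = 1.16e-09). Wasl, the N-WASP activator of actin branching, had 29.0, 30.9 and 45.5 CPM in CP CML and 68.8, 71.8 and 86.7 CPM in BC CML LSKs (log2 fold change 1.13, SE 0.11, adjusted p = 1.82e-08). Both were apart in all 12 libraries, like 20.7% of all tested genes. The oxidative stress regulator Nfe2l2 rose by a log2 fold change of 0.41, the mitochondrial fusion GTPase Mfn1 by 0.25 and the histone methyltransferase Ash1l by 0.41. Cpt1a, which admits fatty acids to mitochondria, was lower, with 304, 373 and 441 CPM in CP CML and 240.1, 281 and 291 CPM in BC CML LSKs (log2 fold change -0.44, SE 0.08, adjusted p = 0.000299). Prkca, which encodes protein kinase C alpha, had 57.4, 68.0 and 81.4 CPM in CP CML and 57.1, 66.4 and 73.6 CPM in BC CML LSKs (log2 fold change -0.02, adjusted p = 0.855).

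Rab, Arf and Arf-like GTPases that changed were mostly higher. Of 53 Rab GTPases, which steer vesicles between compartments, 23 were higher (43.4%) and 6 lower, with a median log2 fold change of 0.14. Beside Rab12 and Rab2a, Rab1a of the early secretory route had 184, 191 and 207 CPM in CP CML and 243, 282 and 308 CPM in BC CML LSKs (log2 fold change 0.52, SE 0.06, adjusted p = 6.01e-07). Of 23 ADP-ribosylation factors (Arf) and Arf-like proteins, 8 were higher and 0 lower (median 0.08, or 0.01 under library totals). Arf4, a coat recruiter at the Golgi, had 128, 135 and 153 CPM in CP CML and 219.6, 234 and 255 CPM in BC CML LSKs (log2 fold change 0.77, SE 0.06, adjusted p = 2.16e-09). Of 23 SNAREs, the proteins that fuse membranes, 5 were higher and 3 lower, close to the background of all genes, with Stx12 at 0.67 and Vamp3 at 0.61 on the log2 scale.

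Several genes of the actin skeleton were higher. Twf1, an actin monomer binder, had 65.3, 71.7 and 73.5 CPM in CP CML and 114, 129 and 136 CPM in BC CML LSKs (log2 fold change 0.84, SE 0.07, adjusted p = 3.57e-09). Gsn, the filament-severing gelsolin, had 24.1, 30.2 and 33.4 CPM in CP CML and 53.5, 71.0 and 99.9 CPM in BC CML LSKs (log2 fold change 1.296, SE 0.17, adjusted p = 2.86e-06). Rhoq, a small GTPase, and Arhgap35, a GTPase-activating protein, rose by log2 fold changes of 1.31 and 1.25. Twf1 and Gsn, picked by smallest p, did not overlap between the groups, like 20.7% of all tested genes.

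Among 25 integrins, 8 were higher (32%) and 2 lower (8%), against 20.4% and 17.6% of all tested genes (median 0.14). Of 44 homing and adhesion receptors, 15 were higher (34.1%) and 6 lower (13.6%). The sphingosine 1-phosphate receptor S1pr3 had 20.8, 25.6 and 31.5 CPM in CP CML and 78.5, 89.9 and 102 CPM in BC CML LSKs (log2 fold change 1.81, SE 0.12, adjusted p = 4.07e-11). Cd151, a tetraspanin that binds integrins, had 21.8, 24.4 and 25.9 CPM in CP CML and 60.6, 64.8 and 75.8 CPM in BC CML LSKs (log2 fold change 1.47, SE 0.07, adjusted p = 1.07e-13). Beta-catenin, Ctnnb1, of adhesion complexes and Wnt signalling, had 445, 480.1 and 509 CPM in CP CML and 805, 845 and 888 CPM in BC CML LSKs (log2 fold change 0.81, SE 0.05, adjusted p = 4.39e-12). These 3 did not overlap between the groups, like 20.7% of all tested genes. Semaphorins and plexins, guidance ligands and their receptors, were lower in 12 (48%) and higher in 3 (12%) of 25, with Plxnb1 (-2.13) and Sema4c (-0.79) among the lower. The 5 SLAM receptors tested had 4 lower (80%) and 0 higher members, among them Slamf7 (-2.87), Slamf9 (-2.600) and Slamf6 (-2.02).

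Stem cell genes that changed were mostly lower. Of 32 stem cell identity genes, 16 were lower (50%) and 3 higher, with a median log2 fold change of -0.29. Hlf, a transcription factor of long-term stem cells, had 235, 259 and 325 CPM in CP CML and 108, 132 and 175 CPM in BC CML LSKs (log2 fold change -1.03, SE 0.17, adjusted p = 5.58e-05). Procr, the protein C receptor used to isolate stem cells, had 11.1, 14.8 and 18.6 CPM in CP CML and 4.36, 6.87 and 8.21 CPM in BC CML LSKs (log2 fold change -1.15, SE 0.24, adjusted p = 0.000613). Robo4, a receptor for Slit guidance cues, had 22.1, 25.05 and 30.8 CPM in CP CML and 6.69, 10.4 and 15.2 CPM in BC CML LSKs (log2 fold change -1.26, SE 0.19, adjusted p = 2.35e-05). None of the 3 overlapped between the groups, which was also so for 20.7% of all tested genes. The exceptions that were higher included Ly6a and Hoxb5, a homeobox gene of long-term stem cells, which rose by a log2 fold change of 1.45. In bulk LSKs, fewer cells of a type and less RNA per cell cannot be told apart.

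Lymphoid-primed genes followed a like pattern, with 9 lower and 4 higher of 18 (median -0.51). Flt3, the cytokine receptor of lymphoid-primed progenitors, had 574, 686 and 812 CPM in CP CML and 225, 282 and 380.1 CPM in BC CML LSKs (log2 fold change -1.23, SE 0.15, adjusted p = 1.05e-06). Bcl11a, a repressor needed for B cell development, had 183, 208 and 248 CPM in CP CML and 126, 142 and 167 CPM in BC CML LSKs (log2 fold change -0.58, SE 0.08, adjusted p = 5.1e-06). The chromatin organizer Satb1 and the lymphoid surface protein Ly6d fell with log2 fold changes of -0.48 and -2.44.

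The neutrophil-primed genes that changed were all higher. Of 20 neutrophil-primed progenitor genes, 12 were higher (60.0%) and 0 lower (median 0.61). Elane, the neutrophil elastase, had 208, 276 and 479.5 CPM in CP CML and 497, 704 and 787 CPM in BC CML LSKs (log2 fold change 1.17, SE 0.36, adjusted p = 0.0127). Ctsg, cathepsin G, had 537, 696 and 929.8 CPM in CP CML and 1039, 1446 and 1627 CPM in BC CML LSKs (log2 fold change 0.96, SE 0.25, adjusted p = 0.00397). Serpinb1a, an inhibitor of these proteases, had 283, 329.8 and 376 CPM in CP CML and 406, 586 and 701 CPM in BC CML LSKs (log2 fold change 0.82, SE 0.11, adjusted p = 3.19e-06). Each was higher in all BC CML than in all CP CML libraries, and 20.7% of all tested genes were apart in either direction. The receptor Csf3r and the transcription factor Gfi1 rose by 0.49 and 0.62 on the log2 scale. With females only, 1 of the list was higher. The mature neutrophil list was mixed, with 5 higher and 4 lower of 17, or 3 higher without BC CML replicate 5.

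The mast cell or basophil list had 11 higher and 0 lower genes of 19 (median 1.09). Cpa3, the mast cell carboxypeptidase, had 723, 1132 and 1425 CPM in CP CML and 2410.2, 4163 and 5565 CPM in BC CML LSKs (log2 fold change 1.86, SE 0.29, adjusted p = 2.65e-05). Cma1, the chymase, had 353, 540.0 and 819 CPM in CP CML and 919, 1657 and 2783 CPM in BC CML LSKs (log2 fold change 1.65, SE 0.34, adjusted p = 0.000515). The IgE receptor subunit Ms4a2 had 51.6, 85.5 and 101.1 CPM in CP CML and 154, 242 and 313 CPM in BC CML LSKs (log2 fold change 1.58, SE 0.40, adjusted p = 0.00312). Summed over the list, the level was 2859 to 5861 CPM in CP CML, against 7749 to 16159.5 CPM in BC CML LSKs, without overlap. Whether cells of this lineage were part of the sorted LSKs was not tested.

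Genes of the B lineage, erythroid and MHC class II lists were lower where they changed. Of 16 B lineage genes, 8 were lower and 0 higher, and of 19 erythroid genes 9 were lower and 0 higher (medians -0.96 and -1.10). Pou2af1, a coactivator of antibody genes, had 8.14, 21.9 and 46.8 CPM in CP CML and 0.173, 0.484 and 1.02 CPM in BC CML LSKs (log2 fold change -5.52, SE 0.67, adjusted p = 1.04e-06). Irf4, a factor of plasma cells, had 8.74, 14.3 and 31.5 CPM in CP CML and 1.12, 2.6 and 4.99 CPM in BC CML LSKs (log2 fold change -2.67, SE 0.45, adjusted p = 6.67e-05). Car2, a carbonic anhydrase of erythroid cells, had 179, 222 and 274 CPM in CP CML and 74.9, 98.3 and 151 CPM in BC CML LSKs (log2 fold change -1.10, SE 0.16, adjusted p = 7.9e-06). These genes did not overlap between the groups, like 20.7% of all tested genes. The B lineage list summed to 214 to 840.0 CPM in CP CML, against 47.5 to 66.6 CPM in BC CML, a difference that lay mostly in Jchain. Without Jchain the sums were 78.9 to 146 CPM and 46.6 to 60.0 CPM, and the list's marker Ms4a1 was near 0 in both. The share of plasma cells in the libraries was not tested. MHC class II genes were lower in 5 and higher in 0 of 10, with the invariant chain Cd74 (-1.94) and H2-Ob (-1.198). That count moved without CP CML replicate 1 (3), 4 (2), 5 (2) or 6 (2) or BC CML replicate 1 (2), 2 (2), 4 (2) or 6 (3) (lower genes in parentheses).

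Macrophage genes differed between CP CML females and males as well as between the groups. Of 18, 5 were lower (27.8%) and 0 higher (median -1.60). The list summed to 372 to 389 CPM in CP CML females and 938 to 1148 CPM in CP CML males. In BC CML it summed to 298 to 517 CPM in females and 326 to 623 CPM in males. The CP CML males and females carried separate runs of mouse numbers, so sex and other differences between those mice cannot be told apart. With males only, 14 were lower, and with females only 0. The count also moved without CP CML replicate 2 (8), 4 (3), 5 (1) or 6 (1) or BC CML replicate 1 (2), 2 (2), 4 (2), 5 (9) or 6 (3). Cd163, a scavenger receptor of macrophages, had 9.78, 23.3 and 50.9 CPM in CP CML and 2.31, 3.52 and 7.74 CPM in BC CML LSKs (log2 fold change -2.79, SE 0.59, adjusted p = 0.000741), and C1qa, a complement gene, had 2.02, 12.96 and 25.6 CPM in CP CML and 1.31, 3.69 and 11.9 CPM in BC CML LSKs (log2 fold change -1.27, adjusted p = 0.209). Adgre1, a member of the list, had a log2 fold change of 0.77, opposite in sign to the list median, and did not pass the test. With only the 12 CML libraries in the fit, Adgre1 passed the same test (log2 fold change 0.76, adjusted p = 0.0223). The part of macrophage RNA in other results was not tested. Of 17 T or NK cell genes, 6 were higher (35.3%) and 2 lower (11.8%), where 20.4% and 17.6% of all tested genes were. The list summed to 70.7 to 97.5 CPM in CP CML, against 129 to 173 CPM in BC CML. The transcription factor Gata3, which T cells and early blood cells share, had 9.93, 12.8 and 17.0 CPM in CP CML and 42.6, 56.2 and 74.2 CPM in BC CML LSKs (log2 fold change 2.14, SE 0.29, adjusted p = 4.21e-06). Lck, a T cell kinase, was lower (log2 fold change -1.05, adjusted p = 1.42e-05), and Cd3e was near 0. Cd4, which helper T cells and some progenitors carry, ranged from 9.24 to 13.5 CPM in CP CML and from 2.45 to 8.42 CPM in BC CML. The part of T or NK cells in these values was not tested.

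**Figure D2:**
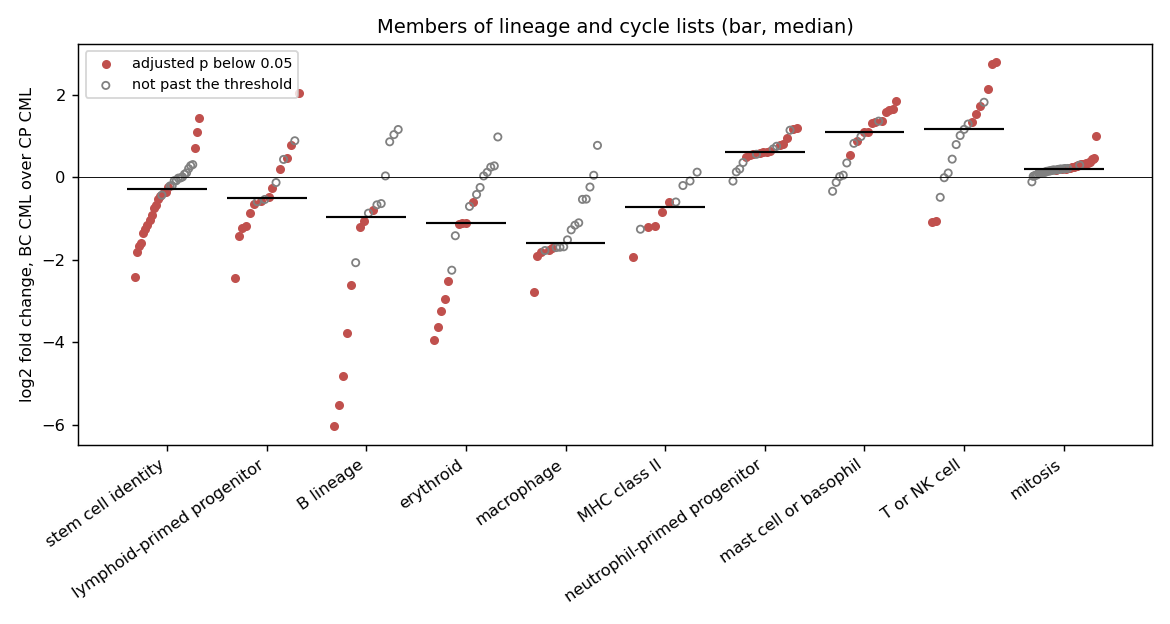
Log2 fold change (y axis, BC CML over CP CML) of each tested member of 10 lists (x axis), ordered by value within a list, with filled points past the threshold and a bar at the median. Mast cell and neutrophil-primed genes past the threshold lie above 0, and B lineage, erythroid, macrophage and MHC class II genes past it lie below.

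Signalling genes moved in both directions. Of 39 cytokine receptors, 15 were higher (38.5%) and 7 lower (17.9%), against 20.4% and 17.6% of all tested genes. Ifngr2, a chain of the interferon gamma receptor, had 46.6, 48.5 and 53.6 CPM in CP CML and 90.0, 92.6 and 100.9 CPM in BC CML LSKs (log2 fold change 0.93, SE 0.08, adjusted p = 5.35e-09). Tnfrsf1a, the main TNF receptor, had 97.4, 107 and 126 CPM in CP CML and 164, 182 and 195 CPM in BC CML LSKs (log2 fold change 0.71, SE 0.07, adjusted p = 2.78e-08). In contrast Il1r1, the interleukin 1 receptor, had 183, 194 and 239 CPM in CP CML and 105, 110.1 and 141 CPM in BC CML LSKs (log2 fold change -0.82, SE 0.13, adjusted p = 3.06e-05). All 3 were apart between the groups, like 20.7% of all tested genes. TGF-beta and BMP genes had 6 higher and 6 lower of 28, shares near those of all tested genes, among them the mediator Smad5 (0.68) and the receptors Bmpr1a (1.85) and Tgfbr3 (-0.91).

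ERK pathway and feedback genes were lower in 13 (31.7%) and higher in 7 (17.1%) of 41, against 17.6% and 20.4% of all tested genes. The exchange factor Rasgrp3 had 5.75, 8.26 and 13.03 CPM in CP CML and 1.23, 2.11 and 2.98 CPM in BC CML LSKs (log2 fold change -2.01, SE 0.23, adjusted p = 4.54e-07), and the ERK-induced genes Spry4 (-2.20) and Etv5 (-1.11) also fell. JAK STAT genes had 5 higher and 5 lower of 32, or 15.6% each way, against 20.4% and 17.6% of all tested genes. The number higher was 2 without CP CML replicate 2. It was 3 without each of CP CML replicates 3, 4 and 5 and BC CML replicates 1, 3 and 4. The STAT5 target Cish changed by 0.90 and the kinase Pim2 by -0.65 on the log2 scale. Of 22 surface markers of CML stem cells, 10 were lower (45.5%) and 5 higher (22.7%). Dpp4, the peptidase CD26, had 86.1, 108 and 128 CPM in CP CML and 21.9, 27.8 and 36.2 CPM in BC CML LSKs (log2 fold change -1.92, SE 0.12, adjusted p = 2.21e-11), while Il2ra, the CD25 chain of the interleukin 2 receptor, had 7.84, 10.7 and 22.6 CPM in CP CML and 107, 119.8 and 190.2 CPM in BC CML LSKs (log2 fold change 3.43, SE 0.52, adjusted p = 1.95e-05). Cd9, a tetraspanin, had 29.5, 34.2 and 40.5 CPM in CP CML and 56.4, 64 and 71.8 CPM in BC CML LSKs (log2 fold change 0.89, SE 0.12, adjusted p = 5.16e-06). The groups did not overlap for any of the 3, with Dpp4 lower and Il2ra and Cd9 higher, and 20.7% of all tested genes had no overlap.

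**Figure D3:**
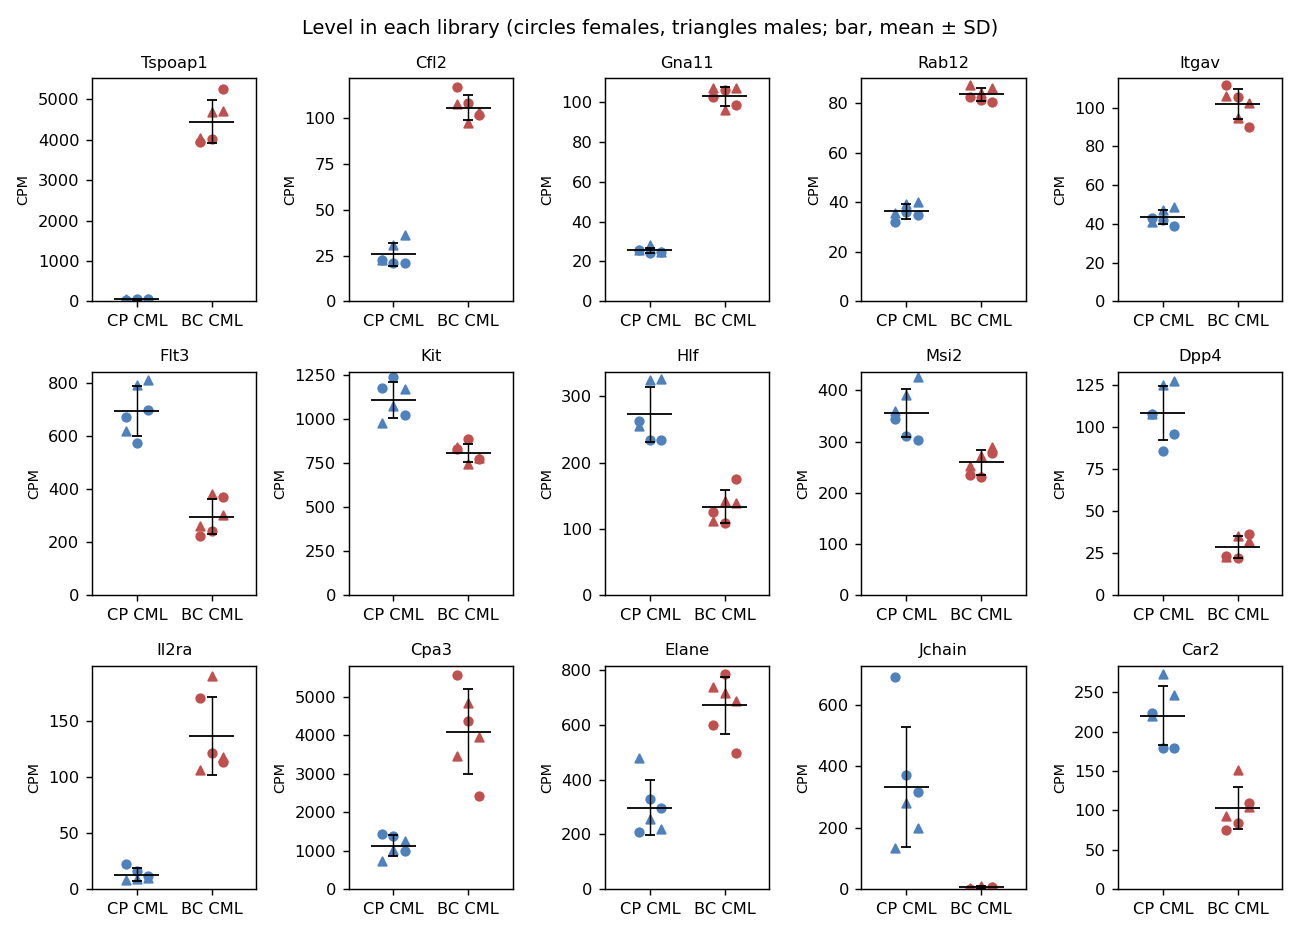
Level (y axis, CPM, each panel from 0) of 15 genes in each CP CML and BC CML library, circles for females and triangles for males, with the mean and SD of 6. The genes were chosen from those named in the text, some by a rule that required no overlap. The groups do not overlap in any panel, whereas 20.7% of all tested genes had no overlap.

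Transcription factors of blood were near the background, with 9 higher and 13 lower of 55. Of 22 Hox, Meis and Pbx genes, 7 were higher (31.8%) and 4 lower (18.2%), against 20.4% and 17.6% of all tested genes. Hoxa9 had 73.4, 82.4 and 103 CPM in CP CML and 74.3, 81.8 and 99.6 CPM in BC CML LSKs (log2 fold change -0.04, adjusted p = 0.777), and Hoxa10 rose by 0.33 on the log2 scale (adjusted p = 0.0295), a call lost with only the 12 CML libraries in the fit, with males only, under upper quartile and library totals, and without each of CP CML replicates 1 to 4 and BC CML replicates 2, 3, 5 and 6. Among Musashi and RNA-binding partners, 3 were higher (12.5%) and 2 lower (8.33%) of 24. Msi2, a regulator of stem cell self-renewal, had 303, 352 and 426 CPM in CP CML and 229.8, 262 and 289.6 CPM in BC CML LSKs (log2 fold change -0.46, SE 0.10, adjusted p = 0.00131), so that the level of its mRNA was lower in every BC CML library. Zfp36l2, which promotes decay of AU-rich mRNAs, had 1053, 1153 and 1229.9 CPM in CP CML and 690.1, 791 and 987 CPM in BC CML LSKs (log2 fold change -0.51, SE 0.07, adjusted p = 1.15e-05).

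Regulators of chromatin and of microRNAs leaned lower. Chromatin regulators had 13 lower (26.5%) and 3 higher (6.12%) of 49 (20 lower without BC CML replicate 3, 23 under library totals). The miRNA machinery had 7 lower (31.8%) and 1 higher (4.55%) of 22. The shares of all tested genes were 17.6% lower and 20.4% higher. Tet1, an enzyme that oxidizes methylated cytosine, had 90.1, 107 and 136 CPM in CP CML and 58.0, 61.2 and 73.5 CPM in BC CML LSKs (log2 fold change -0.82, SE 0.11, adjusted p = 4.38e-06). The Polycomb gene Cbx2 (-0.64) and the acetyltransferase Crebbp (-0.41) also fell. Of 348 zinc finger proteins with a Zfp symbol, 68 were lower (19.5%, near the 17.6% of all genes) and 20 higher (5.75%, against 20.4%). Imprinted genes were lower in 7 and higher in 0 of 16, with Meg3 (-2.68), Dlk1 (-1.57) and Ndn (-1.60), at no more than 15.2 CPM in any library.

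The cell cycle lists differed from each other in their counts. Of 49 mitosis genes, 23 were higher (46.9%) and 0 lower (median 0.20). Of 50 DNA replication genes, 1 was higher and 4 lower (median -0.02), and 13 were lower under library totals. The mitosis count depended on single libraries and on scaling. The number higher is in parentheses for each library whose removal moved it: CP CML replicate 1 (12), 4 (15), 5 (10) or 6 (10) or BC CML replicate 1 (12), 2 (12), 3 (15) or 4 (10). It was 11 and 10 under upper quartile and library totals, where 0 were lower. Anln, anillin of the cleavage furrow, had 98.6, 108 and 121 CPM in CP CML and 189.8, 221 and 232 CPM in BC CML LSKs (log2 fold change 0.99, SE 0.08, adjusted p = 2.23e-09). Ect2, which is needed for cytokinesis, had 111, 115 and 122 CPM in CP CML and 129.8, 159.6 and 164 CPM in BC CML LSKs (log2 fold change 0.43, SE 0.09, adjusted p = 0.000346). The spindle genes Hmmr (0.46) and Prc1 (0.36) were higher as well. CDK inhibitors and D cyclins had 5 higher (20.8%, near the 20.4% of all genes) and 2 lower (8.33%, against 17.6%) of 24. Ccnd2, cyclin D2, had 398, 462 and 553 CPM in CP CML and 281, 321 and 378 CPM in BC CML LSKs (log2 fold change -0.53, SE 0.08, adjusted p = 2.9e-05).

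In the BCL2 family, 5 were higher (26.3%) and 3 lower (15.8%) of 19, against 20.4% and 17.6% of all tested genes. Bcl2l1, the survival protein BCL-XL, had 21.2, 22.9 and 25.7 CPM in CP CML and 27.2, 29.3 and 31.0 CPM in BC CML LSKs (log2 fold change 0.34, SE 0.06, adjusted p = 0.000146). The death activator Bcl2l11 (BIM) had 33.9, 40.8 and 53.4 CPM in CP CML and 28.8, 31.1 and 32.9 CPM in BC CML LSKs (log2 fold change -0.44, SE 0.09, adjusted p = 0.000597). Both pairs of ranges were apart, like those of 20.7% of all tested genes. Few members passed the threshold among interferon-stimulated genes (3 higher and 2 lower of 34), cytosolic ribosomal proteins (4 and 3 of 65) and immediate early genes (0 and 3 of 27). The interferon-stimulated list summed to 984 to 1106 CPM in CP CML and 841 to 1835 CPM in BC CML. Immediate early genes had a median of -0.47. They summed to 6752 to 8675 CPM in CP CML females, 10684.5 to 13567 CPM in CP CML males and 4994 to 9340 CPM in BC CML. With such spread, few calls do not show unchanged levels. Egr1, an immediate early factor, had 964, 1458 and 2391 CPM in CP CML and 528, 601 and 1050.1 CPM in BC CML LSKs (log2 fold change -1.16, SE 0.39, adjusted p = 0.0226), and its groups overlapped. Without CP CML replicate 6 its adjusted p was 0.0615. Monocyte or dendritic cell genes had 2 higher and 3 lower of 18, and megakaryocyte and platelet genes 3 higher and 2 lower of 19. NF-kB and inflammatory genes had 6 higher and 5 lower of 46, and Wnt and Notch genes 5 higher and 7 lower of 34. In each of these lists the share higher was below the 20.4% of all tested genes. The share lower was above 17.6% only for Wnt and Notch genes. The ribosomal count of higher genes was 1 or 2 without CP CML replicates 2, 3, 5 or 6 or BC CML replicates 1, 2, 4 or 5.

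**Figure D4:**
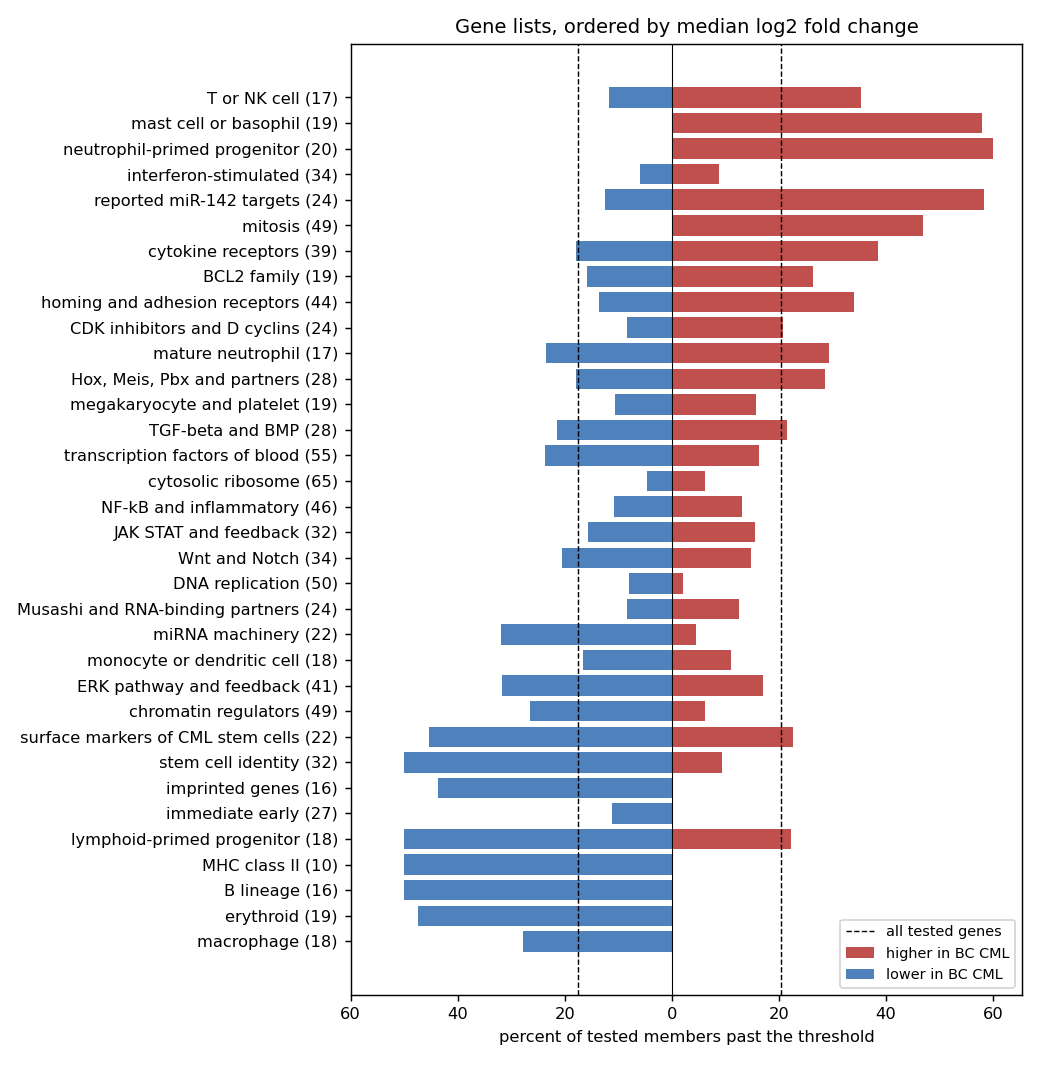
Percent of the tested members of each list shown (number in parentheses) that were higher (right) or lower (left) in BC CML LSKs, ordered by list median, with dashed lines at the 20.4% and 17.6% of all tested genes. Neutrophil-primed, mast cell and mitosis lists have no lower member, and B lineage, erythroid, macrophage, MHC class II, immediate early and imprinted lists have no higher one.

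The effect of miR-142 loss was compared with that in normal LSKs (miR-142 KO over WT), which shared no library with it. The difference between the effects had an adjusted p below 0.05 for 539 genes (3.99%). Ptprg changed by 5.11 in BCR-ABL and -0.48 in normal LSKs (difference 5.59, adjusted p = 6.56e-07). Arl3, a GTPase of the cilium, changed by 0.93 in BCR-ABL and -0.07 in normal LSKs (difference 1.0003, adjusted p = 6.56e-07), and Ctse by -2.92 in BCR-ABL and -0.94 in normal LSKs (difference -1.98, adjusted p = 6.56e-07). In these the effect was larger in BCR-ABL LSKs. Il1rl1, the receptor for interleukin 33, changed by 1.10 in BCR-ABL and 3.37 in normal LSKs (difference -2.27, adjusted p = 0.00591), and the chemokine receptor Cxcr2 by 1.296 in BCR-ABL and 2.27 in normal LSKs (difference -0.97, adjusted p = 0.0242), where the effect was larger in normal LSKs. Cpt1a changed by -0.44 in BCR-ABL and 0.01 in normal LSKs (difference -0.45, adjusted p = 0.0345), Prkca by -0.02 in BCR-ABL and 0.49 in normal LSKs (difference -0.51, adjusted p = 0.0255) and Hoxa9 by -0.04 in BCR-ABL and -0.60 in normal LSKs (difference 0.56, adjusted p = 0.035). The 10 named genes with 3p 8mers rose in both settings, and the difference passed the threshold for Cfl2, with 2.05 in BCR-ABL and 1.51 in normal LSKs (difference 0.53, adjusted p = 0.0329). Over all genes with a 3p 8mer, 37.9% were higher in normal miR-142 KO LSKs, against 19.5% of those with no 3p site.

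**Figure D5:**
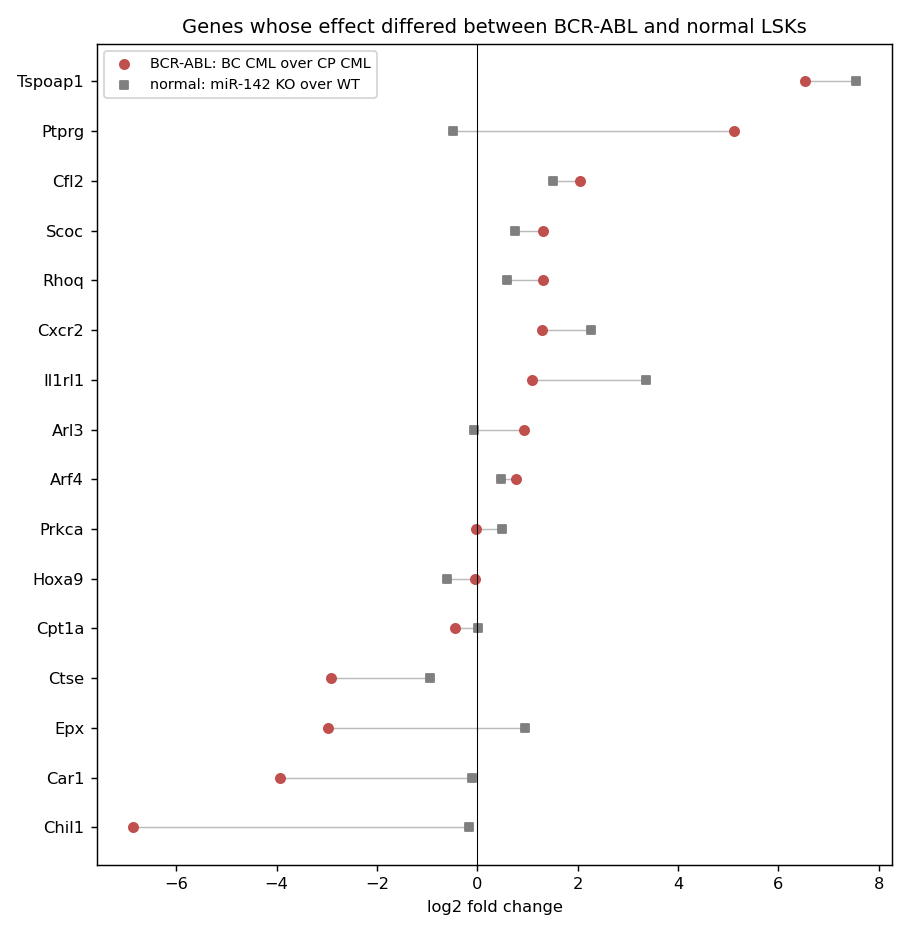
Log2 fold change (x axis) of genes described in the text whose miR-142 effect differed between BCR-ABL (circles) and normal LSKs (squares) with an adjusted p below 0.05, 1 row per gene. Ptprg lies at 5.11 in BCR-ABL and -0.48 in normal LSKs.

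Females and males were also compared. The miR-142 effect in BCR-ABL LSKs differed between the sexes for 0 genes by edgeR's quasi-likelihood test, 0 by its likelihood ratio test and 0 by DESeq2, and 516 genes (3.82%) had an unadjusted p below 0.05.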

How the data were processed

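Poly(A) RNA-seq libraries of LSKs, 1 mouse each, were sequenced in 4 groups of 6. Per the labels and the study's methods, the authors trimmed reads with Trimmomatic, mapped them to mm10 with STAR 2.6.0 and counted reads per gene with HTSeq 0.11.1. The deposited values are raw read counts, and the deposited gene length column was not used in the tests. The annotation and strand setting were not given in the sources used here, so overlapping genes may share reads. The members and lists were chosen with earlier results of these data known.

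Genes were filtered with filterByExpr, TMM-scaled, and fitted in all 24 libraries with edgeR 4.0.16 (R 4.3.3, quasi-likelihood test, Benjamini-Hochberg adjustment, threshold 0.05). SE is the approximate standard error of the fitted log2 fold change. Target sites were matched to GENCODE vM21 3′ UTRs on GRCm38 by gene symbol, and mature miRNAs to RefSeq. Genes named in the text were Mir142, the gate genes and genes of the study, up to 15 by largest fold and 10 by CPM change each way (mean of at least 1 CPM, no overlap), up to 6 per list and 3 per family by smallest p, and up to 10 and 5 genes with 3p and 5p 8mers. Cd34, Cd4, Cd8a, Ly6g, Itgam, Ms4a1, Col1a1 and Xist were added as checks after their values were seen. Alternatives were the likelihood ratio test, DESeq2 1.42.0, RLE, upper quartile and total scaling, other filters, sex as a covariate, a fit of the 12 CML libraries only, single sexes and each mouse left out. The females-only counts of gene lists, family counts limited by symbol to the family itself, and list sums without the top gene were added after seeing the data. Scripts were tested on simulated data. Some genes and lists are not reported here. Replicate libraries differed by more than sampling noise. Total counts of 16267965 to 24687077 per library limit low genes.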

Additional observations from a re-analysis of the deposited data

Results flagged for a closer look

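The effect of miR-142 loss differed between BCR-ABL and normal LSKs for 16 genes described in the text, by edgeR's quasi-likelihood test of the difference with Benjamini-Hochberg adjustment. The difference (BCR-ABL minus normal, log2 scale) was positive for Arf4 (0.31), Arl3 (1.0003), Cfl2 (0.53), Hoxa9 (0.56), Ptprg (5.59), Rhoq (0.73) and Scoc (0.56). It was negative for Car1 (-3.83), Chil1 (-6.70), Cpt1a (-0.45), Ctse (-1.98), Cxcr2 (-0.97), Epx (-3.91), Il1rl1 (-2.27), Prkca (-0.51) and Tspoap1 (-1.02).

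In 16 of 249 groups of 6 libraries examined, 1 library lay far from the other 5, and chance alone sets about 1 in 20 groups apart in this way. In BC CML replicate 1, this was Tgfbr1 at 253 CPM. In BC CML replicate 2, this was Ly6g at 0.129 CPM. In BC CML replicate 3, this was Car1 at 2.22 CPM, Cd8a at 0.151 CPM and Nfe2l2 at 160.0 CPM. In BC CML replicate 5, this was Ect2 at 129.8 CPM, Egr1 at 1050.1 CPM, Il1r1 at 141 CPM and Pim2 at 28.7 CPM. In CP CML replicate 1, this was Cd3e at 0.121 CPM, Epas1 at 4.36 CPM, Ms4a1 at 0.788 CPM, Mzb1 at 14.4 CPM and Pcsk1 at 1.64 CPM. In CP CML replicate 4, this was Ly6g at 0.128 CPM. In CP CML replicate 5, this was Gna11 at 28.2 CPM.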

How the results depend on the processing

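The 5137 genes called became 1693 with females only and 992 where an absolute log2 change of at least 1 was required, and leaving out 1 mouse gave 4404 to 5239. Of the called genes, 53.7% were higher with TMM, 42.4% with upper quartile and 37.9% with library totals, and the median log2 fold change of all genes moved from 0.01 to -0.03 and -0.05. The 539 genes whose effect differed from normal LSKs became 891 with DESeq2, and 375 to 787 without 1 mouse. The sex comparison kept 0 genes in each alternative run. The difference in median between 3p 8mer genes and genes with no 3p site was 0.13 and became 0.068 with 7mers counted. Of 113 called genes named in the text, 111 kept their direction and call in every alternative but the single sexes, Egr1 and Hoxa10 being the exceptions, and 91 passed with females only and 107 with males only. With females only, 6 stem cell identity, 2 erythroid and 4 lymphoid-primed genes were lower, and 4 mast cell or basophil genes higher. Depth limits genes at a few counts per library. No paired analysis was possible because the labels give mouse numbers that no groups share.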
